A study of Mus musculus with 2 samples.

Results

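Hi-C ligates DNA fragments that are near each other in fixed nuclei, and a read pair from a ligated fragment records 1 contact between 2 genomic positions. Described here is the distal part of mouse chromosome 1, chr1:90750001-195471971 (GRCm38), in *Lin28a* knockout embryonic stem (ES) cells. Members were the pairs with both ends in that part and at least 20 kb apart, 2426900 pairs of 17224046 analysed in the series, and the loci of *Tfcp2l1*, *En1*, *Cxcr4*, *Lefty1* and *Prox1* with a gene-dense stretch of 5 Mb that starts at 170 Mb (chr1:170000001-175000000) were followed in them. The distal part and the stretch were set by position and the loci by gene name.

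The series holds 2 Hi-C libraries, 1 of wild-type and 1 of *Lin28a* knockout mouse ES cells. In its general methods the study grew ES cells on mouse embryonic fibroblast feeders with leukemia inhibitory factor (LIF). The medium also held inhibitors that keep the naive state (LIF/2i). Per the methods of the study, knockout lines were picked clones made by CRISPR/Cas9 with a guide RNA against the second exon of *Lin28a*, and the study also used ES cells from *Lin28* knockout mice. E14 was the study's default ES line, with V6.5 where stated, and which source or clone gave the Hi-C library was not given in the sources used here. *Lin28a*, which encodes an RNA-binding protein, is not on chromosome 1, so these pairs hold no check of the label, and the share of DNA from feeder cells was not measured. Per the labels each group had 2 replicates, yet its pairs come as 1 list, so no test was made and every interval below is a 95% interval that covers counting error only. The wild-type list ended 112 kb into the distal part, so the distal map was made from the knockout list alone.

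Chromosomes in most mammalian nuclei divide into compartment A, with open and gene-rich chromatin, and compartment B, with compact and gene-poor chromatin, and regions of the same compartment contact each other more often than regions of different ones. At a finer scale, chromatin forms domains whose ends, the boundaries, are crossed by few contacts and often lie at binding sites of the insulator protein CTCF or at active genes. In ES cells, genes of the pluripotency network are open, and many genes of later development are held silent by Polycomb. Hi-C measures contacts and not transcription, so no expression is given here.

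The 5 loci have different roles. *Tfcp2l1* encodes a transcription factor of the naive pluripotent state that LIF signalling acts through, and *Lefty1* encodes a secreted inhibitor of Nodal signalling. *En1* and *Prox1* encode homeodomain transcription factors, *En1* of the midbrain-hindbrain region and the limb, and *Prox1* of the lymphatic endothelium, the lens and the liver. *Cxcr4* encodes the receptor of the chemokine CXCL12.

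The promoters of 4 of the 5 loci were in the RefSeq promoter table of GRCm38.p6 used here, and *Lefty1* was not. They are shown with CpG dinucleotides in capitals, from 250 bases before to 50 bases after the start on the gene's own strand, because base composition was the feature that followed the compartments most closely below. *Dpp10*, a long neuronal gene deep in compartment B, and *Olfr16*, an olfactory receptor gene in the B side of the gene-dense stretch, are shown beside them.
*Tfcp2l1* promoter, chr1:118627695-118627994 (+): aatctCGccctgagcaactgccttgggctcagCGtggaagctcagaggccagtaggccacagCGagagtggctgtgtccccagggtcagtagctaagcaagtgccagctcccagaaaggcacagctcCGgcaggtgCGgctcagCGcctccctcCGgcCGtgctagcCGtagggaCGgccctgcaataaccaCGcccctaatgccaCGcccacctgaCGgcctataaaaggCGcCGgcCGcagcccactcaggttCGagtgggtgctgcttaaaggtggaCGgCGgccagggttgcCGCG
*En1* promoter, chr1:120602237-120602536 (+): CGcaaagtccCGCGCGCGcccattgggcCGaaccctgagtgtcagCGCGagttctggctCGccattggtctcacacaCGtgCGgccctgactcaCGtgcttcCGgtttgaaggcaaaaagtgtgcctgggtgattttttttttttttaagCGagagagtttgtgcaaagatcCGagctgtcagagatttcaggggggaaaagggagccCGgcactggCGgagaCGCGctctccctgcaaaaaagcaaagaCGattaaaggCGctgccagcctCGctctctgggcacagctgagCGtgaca
*Cxcr4* promoter, chr1:128592250-128592549 (-): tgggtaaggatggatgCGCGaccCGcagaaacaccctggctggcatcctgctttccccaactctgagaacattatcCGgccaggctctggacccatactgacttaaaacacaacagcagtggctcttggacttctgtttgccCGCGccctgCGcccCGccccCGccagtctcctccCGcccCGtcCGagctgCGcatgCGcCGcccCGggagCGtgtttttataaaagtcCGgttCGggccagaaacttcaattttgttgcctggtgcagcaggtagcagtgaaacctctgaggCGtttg
*Prox1* promoter, chr1:190170778-190171077 (-): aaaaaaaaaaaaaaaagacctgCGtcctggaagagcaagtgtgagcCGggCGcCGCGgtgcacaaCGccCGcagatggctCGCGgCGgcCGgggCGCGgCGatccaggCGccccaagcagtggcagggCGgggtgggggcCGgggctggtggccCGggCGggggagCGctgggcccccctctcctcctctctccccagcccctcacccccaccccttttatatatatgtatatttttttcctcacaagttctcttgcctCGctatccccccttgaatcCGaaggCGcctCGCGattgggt
*Dpp10* promoter, chr1:124045510-124045809 (-): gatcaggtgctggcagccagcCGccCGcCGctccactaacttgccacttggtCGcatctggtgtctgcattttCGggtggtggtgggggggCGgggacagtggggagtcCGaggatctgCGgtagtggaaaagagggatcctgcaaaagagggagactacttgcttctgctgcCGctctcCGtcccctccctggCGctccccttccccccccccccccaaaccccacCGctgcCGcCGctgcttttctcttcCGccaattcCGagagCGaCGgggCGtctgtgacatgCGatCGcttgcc
*Olfr16* promoter, chr1:172956518-172956817 (+): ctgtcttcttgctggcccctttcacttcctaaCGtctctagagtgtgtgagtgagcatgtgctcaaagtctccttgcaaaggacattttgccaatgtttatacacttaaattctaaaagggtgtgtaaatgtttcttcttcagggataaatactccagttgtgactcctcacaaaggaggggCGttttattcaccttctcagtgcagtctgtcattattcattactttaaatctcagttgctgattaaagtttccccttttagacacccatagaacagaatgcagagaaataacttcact
These windows held 21, 23, 20 and 25 CpG at *Tfcp2l1*, *En1*, *Cxcr4* and *Prox1*, 21 at *Dpp10* and 2 at *Olfr16*. Over 981 promoters of the distal part, 1 per gene, the median was 8 CpG where the compartment value was above 0 (696 promoters) and 4 where it was below (285 promoters), and windows with 10 or more CpG made up 47.1% and 27.0%. The *Dpp10* promoter, with as many CpG as that of *Tfcp2l1*, lay in B, so promoter CpG alone did not sort these loci.

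Matches to a CTCF-like core were searched on both strands of the boundaries near the loci and of the 5 deepest ones. A looser core, CCANNAGNNGGC, occurs in nearly every window of this size, so only matches to a stricter core that lies within it, CCACNAGNGGGC, are shown, with the 12 positions of the core in capitals. They were present in the boundary bins beside *Lefty1*, on both sides of *Cxcr4*, at *Npl* and at *Traf5*, of which 3 are shown. These letters were not in the boundary bins at *Clasp1* upstream of *Tfcp2l1*, beside *En1*, beside *Prox1*, at *Tgfb2* or at *Ly9*.
Boundary beside *Lefty1*, chr1:180874170-180874199 (+): ttcttgtggCCACTAGAGGGCgctgtgtac
Boundary downstream of *Cxcr4*, chr1:128281969-128281998 (+): ccacagaagCCACAAGAGGGCattggattc
Boundary at *Npl*, chr1:153559426-153559455 (+): tgttcccttCCACTAGGGGGCagtgtctcc
A match is a description of the sequence, and binding of CTCF was not measured.

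The distal part held slightly more pairs per Mb than the rest of the chromosome, but not at short range. It held 23169 pairs per Mb against 22493 per Mb for the 1973740 pairs between 3 Mb and the start of the distal part, which are called proximal here, and a median of 11015 pairs per 250 kb bin. Only pairs with both ends in a part count, so the longer part can hold more far pairs per Mb. The median number of pairs that cross a 100 kb bin, within a 500 kb square, was lower in the distal part, at 1797 against 1893. Of pairs with a first end in the distal part, 59.7% had the second end on chromosome 1, with unplaced contigs and mitochondrial DNA left out. Pairs that join the proximal and distal parts are listed with a proximal first end, so they are not in this share. Read names showed 2 sequencing runs, with 2322481 and 104419 of the distal pairs, and both ends had a mapping quality of 30 or more in 84.0%. Of 419 bins of 250 kb, 1 was left out for low counts, as were 4 bins of 100 kb with 0 to 8 pairs each, at 178.2 to 178.3 Mb and 191.8 to 192.1 Mb, against a median of 4569.

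All 5 loci lay in compartment A, at different levels. The compartment value of a 250 kb bin is the leading eigenvector of the correlation between contact profiles, in SD units over the part, and is set to be positive on the gene-rich side. It was 1.67 at *Lefty1*, 1.53 at *Tfcp2l1*, 0.80 at *En1*, 0.69 at *Prox1* and 0.52 at *Cxcr4*. The bins of *Lefty1* and *Tfcp2l1* were thus higher than those of the developmental and receptor genes. With bins of 500 kb the gap was smaller, at 1.57 for *Lefty1*, 1.33 for *Tfcp2l1*, 1.26 for *Prox1*, 1.09 for *En1* and 1.06 for *Cxcr4*, so that *Prox1* passed *En1*. With the eigenvector of the whole chromosome *Tfcp2l1* passed *Lefty1* (1.61).

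**Figure D1:**
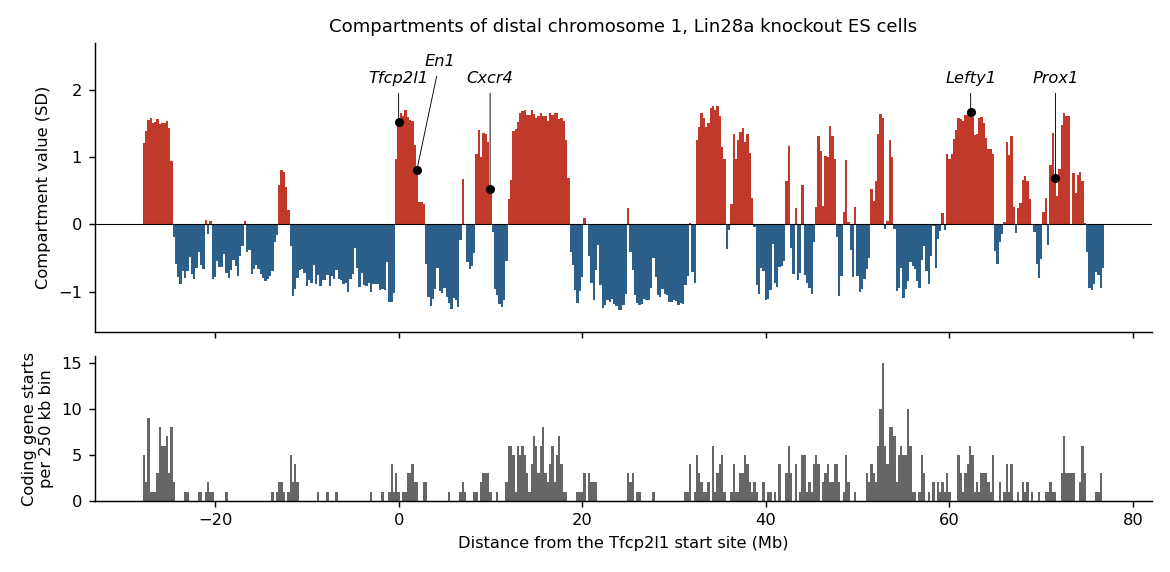
Compartment value of each 250 kb bin (upper panel, SD units, red above 0 and blue below) and coding gene starts per bin (lower panel) along distal chromosome 1 in the *Lin28a* knockout library, by distance from the *Tfcp2l1* start site in Mb. Black points mark the bins of the 5 loci, all above 0, from 0.52 at *Cxcr4* to 1.67 at *Lefty1*.

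The order was also that of each locus's contacts with A and B bins, which is no independent measure, since the same contacts set the compartment value. As a log2 ratio of contacts with the top 20% of bins (A) over contacts with the bottom 20% (B), both at 2 Mb or more and relative to the mean at equal distance, *Lefty1* had 2.79 and *Tfcp2l1* 2.02 (1.85 to 2.18). *En1* had 0.86, *Prox1* 0.68 and *Cxcr4* 0.40. In the larger run alone the ratio was 2.76 (2.56 to 2.96) at *Lefty1*, 2.02 (1.85 to 2.19) at *Tfcp2l1*, 0.88 (0.73 to 1.03) at *En1*, 0.69 (0.50 to 0.88) at *Prox1* and 0.41 (0.26 to 0.57) at *Cxcr4*, so the intervals of *En1* and *Prox1* overlapped, as did those of *Prox1* and *Cxcr4*. In the smaller run, with 12 to 98 pairs to either set, it was 3.54 at *Lefty1*, 1.94 at *Tfcp2l1*, 0.38 at *En1*, 0.35 at *Prox1* and 0.18 at *Cxcr4*. In that run the interval of *Lefty1* (2.57 to 4.52) lay above those of *En1*, *Prox1* and *Cxcr4*, which all included 0, and that of *Tfcp2l1* (1.13 to 2.76) overlapped that of *Prox1* (-0.58 to 1.28).

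*Tfcp2l1* sat just inside the deepest boundary of the distal map. The bins before it formed the longest B run, 11.5 Mb from 106.75 to 118.25 Mb with a mean value of -0.83, which holds the serpin genes and *Cntnap5a*. Compartment values went from -1.01 in the last bin of that run to 0.97 in the next and 1.53 in the bin of *Tfcp2l1*. The boundary between them, at *Tsn*, *Nifk* and *Clasp1* (118.35 Mb), had an insulation score of -1.43 (-1.53 to -1.33) and a depth of -1.65. The insulation score is the log2 of contacts that cross a 100 kb bin, within a 500 kb square, over the mean of the part, and depth is the score minus the mean score 500 kb to either side.

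*En1* lay in the same A run as *Tfcp2l1*, 3.25 Mb from 118.25 to 121.5 Mb with 22 coding genes, 898 kb from its far edge. Values in this run fell from 1.54 at 120.125 Mb to 0.80 in the bin of *En1* and 0.30 at 121.375 Mb, before *Dpp10*'s run began. The gene starts 52.4 kb from a boundary at *Marco* (120.55 Mb), which was shallow, with a depth of -0.36. Between the bins of *Tfcp2l1* and *En1*, 2 Mb apart, 72 pairs were seen, 0.721 times the mean at that distance (0.564 to 0.908).

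*Cxcr4* lay near the edge of an A run that spans 127 to 128.75 Mb and also holds *Mcm6*, *Dars* and *Ubxn4*. Values fell from 1.35 and 1.22 in the bins of these housekeeping genes to 0.52 at *Cxcr4* and -0.11 in the next bin. Its domain was 600 kb long, between boundaries at 128.25 Mb (depth -0.31) and 128.85 Mb (depth -0.19), and held 4 coding genes.

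*Lefty1* and *Prox1* lay among many and few genes, respectively. *Lefty1* was in the middle of an A run of 5.25 Mb with 52 coding genes, 85.0 kb from a boundary at *H3f3a*, *Sde2* and *Lefty2* (180.85 Mb, depth -0.55). *Lefty2*, its neighbour and a second Nodal inhibitor, shared its 250 kb bin. *Prox1* was the only coding gene to start in its domain of 800 kb. Its bin and the next, at 0.69 and 0.42, formed a dip between bins at 1.36 and 0.83, inside an A run from 189.5 to 191.75 Mb.

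**Figure D2:**
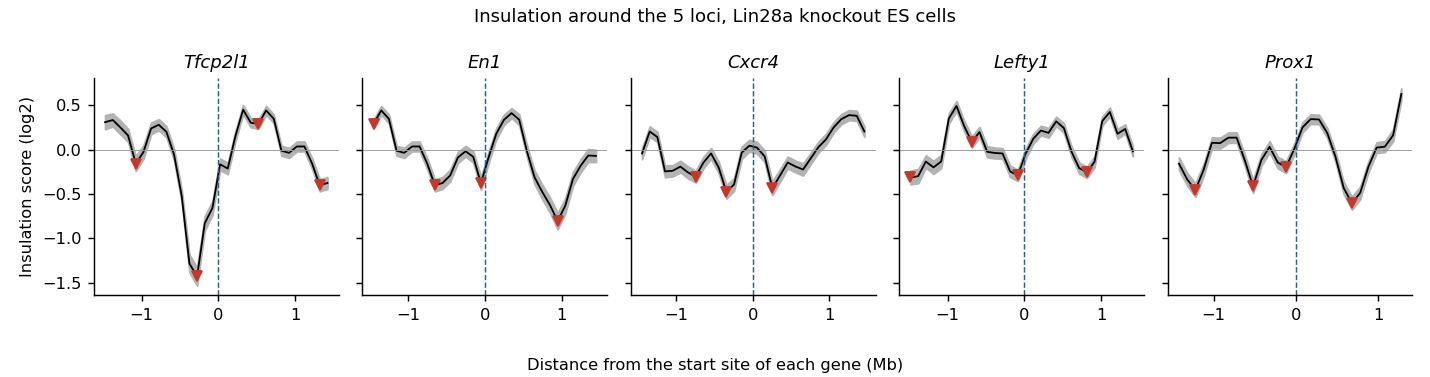
Insulation score (log2, 100 kb bins) within 1.5 Mb of the start site of each of the 5 loci (dashed line) in the *Lin28a* knockout library. Grey bands are 95% counting intervals and red triangles are boundaries, and the deepest, at -1.43, lies 278 kb upstream of *Tfcp2l1*.

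The scores at the start sites themselves were small and changed with the size of the square. They were -0.17 at *Tfcp2l1*, -0.05 at *Lefty1*, -0.09 at *En1*, 0.01 at *Prox1* and 0.04 at *Cxcr4*, and 4 of the 5 changed sign with a square of 300 kb or 1 Mb, so no order was read from them.

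Far partners of the loci were mostly A bins. For *Tfcp2l1* the highest contact over the mean at equal distance, among bins at least 2 Mb away with at least 20 pairs, was with *Nmnat2* and *Lamc1* at 153 to 153.25 Mb, at 3.71 (2.61 to 5.12) from 37 pairs. For *Lefty1* it was with *Timm17a* and its neighbours at 135.25 to 135.5 Mb, at 4.24 (2.97 to 5.87) from 36 pairs. *En1* contacted the olfactory receptor cluster at 92.5 to 92.75 Mb most, at 2.35 (1.66 to 3.24), which is one of the A bins. *Prox1* had its highest value with *Cacna1e* at 154.5 to 154.75 Mb (2.54, 1.72 to 3.63) and *Cxcr4* with *Tpr* at 150.25 to 150.5 Mb (2.32, 1.58 to 3.29), both bins near 0 on the compartment scale. These are the highest of all far bins of each locus, so their sizes are a description. The same contacts set the compartment values, so A partners of loci in A are partly built in. Contacts among the 5 loci themselves came to 174 pairs over 10 combinations, at 1.23 times the mean (0.948 to 1.52). Besides *Tfcp2l1* with *En1*, the interval excluded 1 only for *Tfcp2l1* with *Lefty1*, at 2.48 (1.28 to 4.33) from 12 pairs. Both bins are among the top 20%, and the mean contact within that set, 2.13, lies within this interval.

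Other genes of the same roles were followed by lists. The background is that 506 of 693 coding genes of the distal part (73.0%) had a compartment value above 0, with a median of 1.15. Pluripotency and Nodal pathway genes were above 0 in 6 of 6 cases, with a median of 1.64 and a range from 1.26 at *Nr5a2*, an orphan nuclear receptor gene, to 1.67 at *Parp1*. *Kdm5b*, a histone demethylase gene, stood at 1.61. Of these genes, *Lefty1* and *Lefty2* share 1 bin, so 6 genes are 5 bins. Both also share an A run with *Parp1* (178.25 to 183.5 Mb), as *Nr5a2* and *Kdm5b* share another (130.5 to 137.25 Mb). The 6 genes are thus not independent cases.

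Developmental transcription factor genes were above 0 in 11 of 12 cases, yet with a median of only 0.46. *Gli2* (1.62), a mediator of Hedgehog signalling, *Lhx4* (1.38) and *Nhlh1* (1.26) were high, and *Prrx1* (-0.94), a limb mesenchyme factor, was in B. *Lhx9* (0.10), *Lmx1a* (0.04), *Hlx* (0.03) and *Esrrg* (0.00) were near 0, and the last 3 changed sign under at least 1 alternative.

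Housekeeping genes were above 0 in 13 of 15 cases, with a median of 1.26. *Sdhc* (1.63), a subunit of succinate dehydrogenase, *Timm17a* (1.63), of mitochondrial import, and *Ints7* (1.61), of the Integrator complex, were highest, and *Fh1* (-0.53), fumarate hydratase, and *Uchl5* (-0.41), a deubiquitinase of the proteasome, were below 0. *Tpr* (0.02), a nuclear pore gene, changed sign under 2 alternatives. Long neuronal genes were above 0 in 1 of 11 cases, with a median of -0.72. *Nos1ap* (0.64) was the exception, and *Dpp10* (-1.16), *Pappa2* (-1.11) and *Thsd7b* (-1.05) were lowest. *Pappa2* encodes a secreted protease and is not a neuronal gene, but it was listed and stays in these counts and in the contacts below. *Astn1* and *Brinp2* share 1 bin, so 11 genes are 10 bins.

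**Figure D3:**
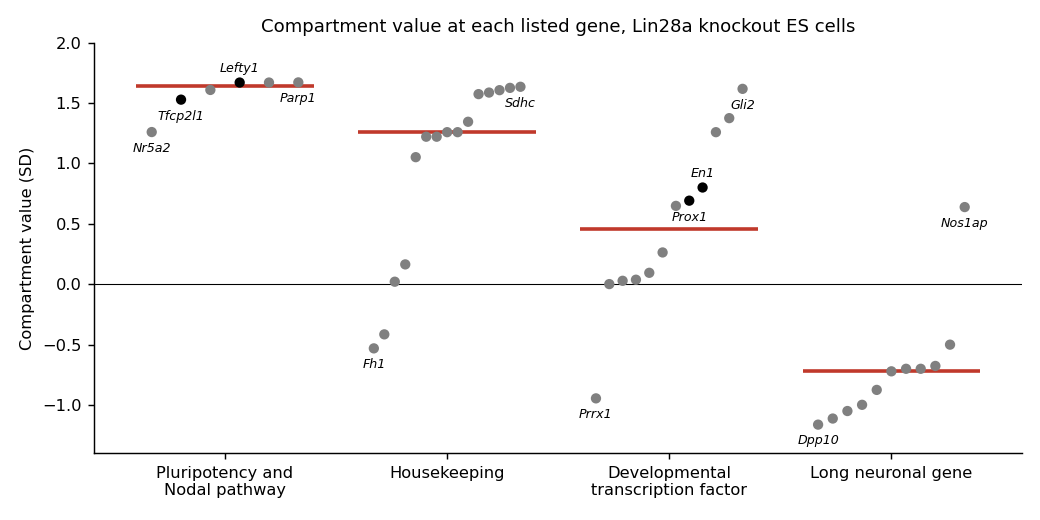
Compartment value (SD units) of the 250 kb bin that holds the start of each listed gene in the *Lin28a* knockout library, 1 point per gene, ordered within each list. Black points are members of the 5 loci, red lines are list medians (1.64, 1.26, 0.46 and -0.72 from left to right), and the long neuronal genes lie below 0 except *Nos1ap*.

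Far contacts within the lists, which also enter the compartment value, followed the same order. At 2 Mb or more, pluripotency and Nodal pathway bins contacted each other at 2.40 times the mean (2.02 to 2.78, 205 pairs), housekeeping bins at 1.66 (1.56 to 1.75) and developmental bins at 1.31 (1.23 to 1.40). Long neuronal bins contacted each other at 0.923 (0.831 to 1.02) and housekeeping bins at 0.853 (0.796 to 0.910). For comparison, all bins above 0 contacted each other at 1.50, bins below 0 at 1.08 and bins of opposite sign at 0.771. The top 20% of bins contacted each other at 2.13, which lies within the interval of the pluripotency and Nodal pathway bins. That interval rests on 9 combinations of bins. Developmental bins contacted housekeeping bins at 1.33 (1.27 to 1.38), within the interval of their contacts with each other.

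Lists were also compared by how near their genes lay to boundaries. Of all 693 coding genes, 344 (49.6%) start within 1 bin of a boundary. For housekeeping genes this was 10 of 15, for developmental transcription factor genes 6 of 12, for pluripotency and Nodal pathway genes 2 of 6 and for long neuronal genes 1 of 11. The developmental share was near that of all genes. These counts are small and some genes share a boundary, as *Mcm6* and *Ubxn4* do. *Copa*, *Ncstn* and *Nhlh1* share the one at 172.05 Mb. Its depth was above 0, at 0.775, so its score was higher than the mean score 500 kb to either side.

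Clusters of tissue-specific genes occurred in both compartments, while 41.1% of all bins of the distal part were above 0. Mean values cover all bins from the first to the last gene of a cluster, including bins without its genes. They were -0.78 for the clade B serpins, -0.89 for complement factor H and its relatives and -0.76 for flavin monooxygenases. The interferon-inducible *Ifi200* genes were at -0.88 and the 5 *Rgs* genes from *Rgs2* to *Rgs18* at -0.90. *Rgs8* and *Rgs16*, outside that cluster, lay in a bin at 1.61. The Fc gamma receptor genes lay in A, at 1.49. The selectin genes were at 0.26, and at 0.003 with bins of 500 kb. The *Slamf* genes, which encode receptors of lymphocytes, were mixed, at -0.07, 0.05, 1.01 and -0.06 in the bins that hold their starts. Over the whole span, with 3 of 5 bins above 0, the mean was 0.44, and 0.92 with bins of 500 kb. That span includes a bin at 1.26 with no *Slamf* gene start. Olfactory receptor genes occurred in both compartments. On the later side of the gene-dense stretch (chr1:172950409-174451277), 19 genes spanned bins of mean -0.86, and 8 genes near 92.5 Mb spanned bins of mean 1.53. The first of these spans contains that of the *Ifi200* genes, with bins at -1.09 and -0.96 that hold no olfactory receptor gene start.

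The 5 Mb stretch held both compartments. It has 114 coding genes, 22.8 per Mb against 6.64 per Mb over the distal part, and its mean compartment value was 0.05. This mean hid a change near its middle. In its first 2.5 Mb, 9 of 10 bins were above 0, with a mean of 0.83, and in its last 2.5 Mb, 0 of 10 were, with a mean of -0.74. Gene number differed less, with 66 and 48 genes, and G+C content was 44.8% and 39.9%.

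The A side was highest at 1.63 and 1.57 in the bins from 171 to 171.5 Mb, which hold *Sdhc*, *Ufc1* and *Usf1* among their coding genes. It was broken by 2 bins near 0, at -0.07 and 0.05, which hold *Ly9*, *Cd48*, *Cd84* and *Slamf1*, genes of blood cell receptors. The boundary in front of them, at 171.55 Mb, had the lowest score of those named here, -1.72 (-1.87 to -1.58), and a depth of -1.25. At *Vangl2*, *Ncstn*, *Copa* and *Igsf8* the value returned to 1.26 and 1.01. The last A bin ended at a boundary at *Slamf9* and *Igsf9* (172.45 Mb, depth -0.85).

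The B side began with the bin of *Tagln2* and *Crp* at -0.06. It then fell to -0.99 at *Apcs* and *Olfr16* and was lowest, at -1.09, in the bin of *Ifi207*, *Ifi208*, *Ifi209*, *Ifi213* and *Ifi214*, genes of cytosolic DNA sensors and their relatives. The bin of *Ifi205*, with 10 coding genes, was at -0.85. Most of its genes are olfactory receptors. Reads of such similar genes can fail to map to 1 place, and pairs per bin on this side, after 172.75 Mb, ran from 4332 to 8092 against 7623 to 10141 on the A side.

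**Figure D4:**
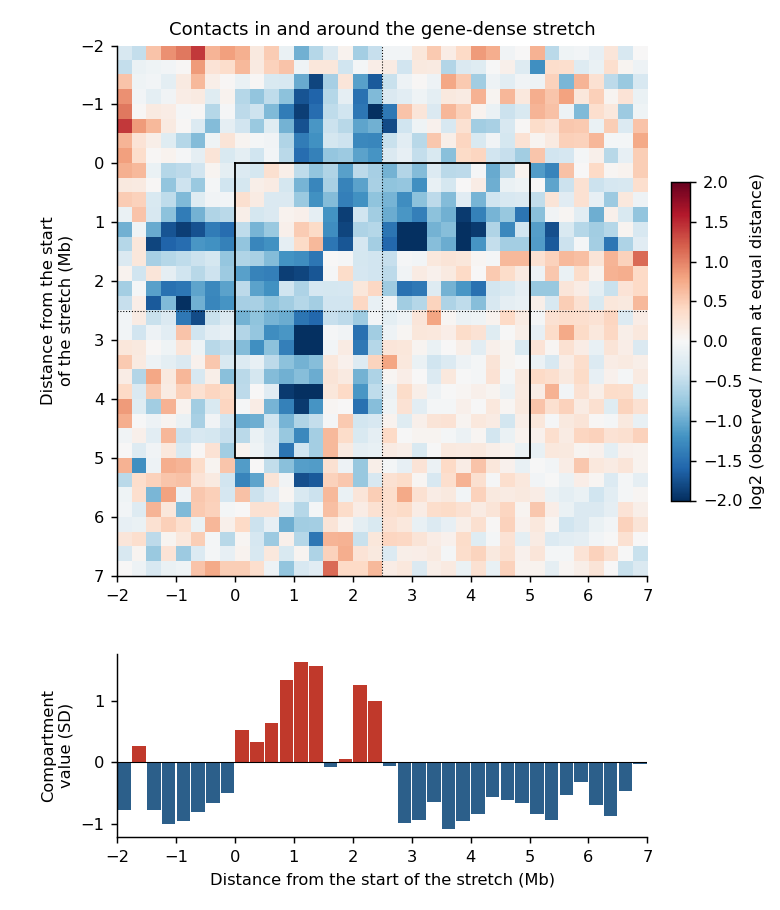
Contacts in and around the gene-dense stretch in the *Lin28a* knockout library, as log2 of balanced contacts over the mean at equal distance per 250 kb bin (upper panel, box marks the stretch, dotted lines its middle), and compartment value in SD units (lower panel), by distance from the start of the stretch in Mb. The A side (mean 0.83) met the B side (mean -0.74) at 0.709 times the mean at equal distance, and itself at 0.678 times.

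The sides met less often than the mean at equal distance, at 0.709 times, or 0.449 without correction. Within itself the A side was at 0.678 (0.660 to 0.696) and the B side at 1.06 (1.03 to 1.08), and without correction at 0.483 and 0.576, so the B side was above the mean only after correction. With the other A bins 2 Mb or more away, the A side was at 1.64 (1.60 to 1.68) and the B side at 0.550 (0.526 to 0.573). With other B bins they were at 0.887 (0.862 to 0.911) and 1.18 (1.14 to 1.21). Both sides thus differed in their far contacts by more than counting error, although the same contacts also set the compartment value.

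Over the distal part as a whole, 43.0 of 104.5 Mb (41.1%) were above 0, and 40.25 of 87.0 Mb (46.3%) in the proximal part. A runs were 29 with 11.8 coding genes per Mb and B runs 28 with 3.04 per Mb. The highest A runs of at least 1 Mb were those of *Rgl1* and *Nmnat2* (151 to 154.25 Mb, mean 1.50), of *Srgap2*, *Ppp1r12b* and *Nfasc* (130.5 to 137.25 Mb, 1.47, with 113 coding genes) and of *Hdac4*, *Lrrfip1* and *Farp2* (at the start of the distal part, 3.25 Mb long, 1.44). The lowest B runs were those of *Brinp3* and *Pla2g4a* (143.75 to 150.25 Mb, -1.01), *Dpp10* (121.5 to 125.5 Mb, -0.98) and *Kcnt2* and *Crb1* (139 to 143.5 Mb, -0.96). The value had a correlation across bins of 0.823 with G+C content, 0.554 with gene count and -0.535 with the repeat share over the bins kept, which are neighbours on 1 chromosome and not replicates. The top 20% of bins had 45.7% G+C, 26.6% repeats and 3.61 genes per bin, and the bottom 20% had 38.3%, 40.6% and 0.595.

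Compartments were more separated in the distal than in the proximal part of the same library. Compartment strength, which sets contacts within A and within B, averaged, against contacts between A and B at 2 Mb or more, was 3.32 (3.27 to 3.37) against 2.87 (2.82 to 2.92), a difference of 0.450 (0.385 to 0.515). A-A contacts were at 2.13 times the mean against 1.69, while B-B contacts were lower, at 1.23 against 1.34. The difference was 0.843 with the top and bottom 10% of bins and 0.186 with 33%, and it kept its sign under all alternatives tried. These are 2 regions of 1 library, and their gene density (6.64 and 5.83 per Mb) and length also differ, so the part of these in the difference was not tested.

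Boundaries were a little denser and, on average, shallower in the distal part. It had 133 boundaries (1.27 per Mb) against 97 (1.11 per Mb), a ratio of 1.15 per Mb that ran from 1.05 to 1.17 under the alternatives. Mean depth was -0.395 (-0.403 to -0.387) against -0.475, a difference of 0.080 (0.068 to 0.092). With squares of 300 kb and 1 Mb that difference kept its sign but fell below this interval. The interval covers counting error only. Depths of the 133 distal boundaries had an SD of 0.407, and this spread among boundaries is not in it. Distal boundaries lay within A in 52 cases, within B in 56 and between them in 25. A boundary bin held 0.992 coding gene starts on average, and a bin with a score 0.658. After that at *Clasp1*, the deepest were at *Npl* (153.55 Mb, -1.33), at *Traf5* and *Rcor3* (192.05 Mb, -1.32), at *Tgfb2* and *Rrp15* (186.75 Mb, -1.30) and at *Ly9* (171.55 Mb, -1.25). That at *Traf5* lies in a bin that was itself left out, with 60% of its square filled, so its depth is uncertain.

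The stricter CTCF-like core was in 31.6% of distal boundary bins and in 16.4% of all 1030 bins with a score. With 1 bin to either side these shares were 50.4% and 38.0%, and the looser core was in 100% and 99.9% of such windows, 17.3 and 14.4 times per window on average. Boundary bins also held more gene starts, and base composition was not matched between the sets.

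Contacts reached further in the distal part. Pairs 10 Mb or more apart were 27.5% (27.5 to 27.6) of distal pairs and 22.9% of proximal ones. When distances over 80 Mb, which the shorter part can hardly hold, were left out, they were 27.2% and 22.8%. These shares are not corrected for length, since below 80 Mb too the shorter part offers relatively fewer positions at far distances. The density of contacts, corrected for the number of positions at each distance, fell with a slope of -1.15 on log scales from 1 to 10 Mb in the distal part and -1.22 in the proximal. For a ratio of the parts, this density was first divided by each part's own pairs per Mb. The distal value was then 0.905 to 0.945 times the proximal one at distances under 3 Mb, and 1.03 to 1.14 times from 17.8 Mb on.

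**Figure D5:**
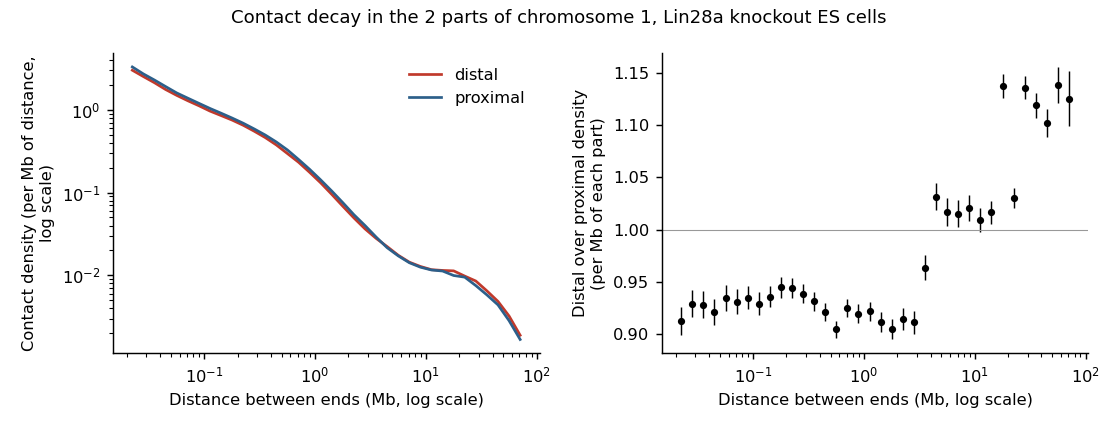
Contact density by distance between ends (left, both axes log scale) and its ratio of distal over proximal part of chromosome 1 (right, distance on a log scale, bars are 95% counting intervals) in the *Lin28a* knockout library. Densities are divided by the pairs per Mb of each part. The ratio lies at 0.905 to 0.945 below 3 Mb and at 1.03 to 1.14 from 17.8 Mb on.

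The genotypes could be compared at a single site, the first 112 kb of the distal part (chr1:90750001-90862048), near *Col6a3*, from which 3880 wild-type and 2731 knockout pairs led to the distal part. Pairs 10 Mb or more away were 38.5% (36.9 to 40.0) in wild-type and 37.8% (35.9 to 39.6) in knockout cells, a difference of -0.70 percentage points (-3.08 to 1.67). Pairs 1 to 10 Mb away were 21.1% (19.8 to 22.4) and 23.8% (22.2 to 25.4). The log2 ratio of far pairs to A bins over those to B bins was 1.42 (1.21 to 1.64) and 1.83 (1.56 to 2.11), higher in the knockout library by 0.41 (0.06 to 0.76). The A and B bins were set by the knockout map, which holds the knockout pairs counted here. Bins within 500 kb of the loci received 43 and 37 pairs at *Tfcp2l1*, 39 and 25 at *En1*, 25 and 17 at *Cxcr4*, 16 and 12 at *Lefty1* and 11 and 6 at *Prox1*, in wild-type and knockout cells, too few to show a difference at this depth. With 1 library per genotype, a difference between the libraries and one between the genotypes cannot be told apart.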

How the data were processed

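Hi-C pairs from 1 wild-type and 1 *Lin28a* knockout library of mouse ES cells were used as deposited. Per the labels and the submitters' processing notes, the authors used CASAVA 1.8, Bowtie2 and HiC-Pro with mm10 (GRCm38). The deposited lists give positions of both ends, not normalized, and a mapping quality score for each end. Both lists were sorted by first end and free of duplicates. The wild-type list reached 90862049 on chromosome 1 and the knockout list ran along all of it, except for stretches near 178.2 and 191.8 to 192.1 Mb with almost no pairs. Whether rows were left out, the cells lack this DNA or reads do not map there is not known.

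Pairs at least 20 kb apart were binned, balanced by iterative correction (bins under 20% of the median total left out) and divided by the mean at equal distance. Compartments used 250 kb bins, with the eigenvector signed by gene count, and A and B the top and bottom 20% of bins. Insulation used 100 kb bins, a 500 kb square and a minimum prominence of 0.1. Intervals were exact Poisson, exact binomial (Clopper-Pearson) or from the variance of balanced counts, and eigenvector values have none. Steps were tested on simulated data. Genes came from GENCODE annotation of GRCm38 and promoters from RefSeq. No test was made with 1 library per group. The members and lists were chosen with earlier results of these data known. Genes named were the 5 loci, the lists, boundaries within 500 kb of a locus or among the 5 deepest, and the 3 highest and lowest runs of at least 1 Mb, to which genes of the bins of the stretch and of top partners were added after their values were seen. The list counts and medians cover all listed genes, and the values of some single genes are not reported here. Alternatives covered mapping quality, runs, bin and square sizes, the share of bins called A or B, correction and depth. Python 3.11.15, numpy 2.4.6, scipy 1.17.1, pandas 2.3.3 and matplotlib 3.10.9 were used.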

Additional observations from a re-analysis of the deposited data

How the results depend on the processing

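The share of distal pairs at 10 Mb or more was 27.4% with mapping quality of 30 or more, 27.6% in the smaller run, 26.4% from 10 kb on and 27.2% up to 80 Mb, and its difference from the proximal part was 4.67 percentage points, with 4.92 in the smaller run, 4.55 from 10 kb on and 4.43 up to 80 Mb. The slope was -1.15 with mapping quality of 30 or more, -1.14 in the smaller run and -1.24 with 5 bins per factor of 10, and its difference from the proximal part was 0.087 and 0.063 in the last 2. Strength was 3.14 with bins of 500 kb, 4.73 and 2.25 with the top and bottom 10% and 33% of bins, 3.17 with the eigenvector of the whole chromosome and 3.38 without correction, and its difference from the proximal part was 0.381, 0.843 and 0.186 under the first 3. Mean depth was -0.410 with mapping quality of 30 or more, -0.313 and -0.321 with squares of 300 kb and 1 Mb (differences 0.047 and 0.051) and -0.386 without boundaries beside left-out bins, an alternative chosen after seeing the data. The boundary count ran from 90 to 162 and stayed within 1.5 times 133. Uncorrected contacts within the stretch were 0.487, between its sides 0.449, and within the A and B sides 0.483 and 0.576. The motif share was 94.7% in the boundary bin alone and 50.4% with the stricter core.

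The mean compartment value of the stretch was -0.035 with the eigenvector of the whole chromosome, which left its sides at 0.62 and -0.69. That setting also turned *Lmx1a* (-0.020), *Hlx* (-0.070), *Esrrg* (-0.083) and *Tpr* (-0.036). Bins of 500 kb turned *Tpr* (-0.42), and mapping quality of 30 or more turned *Esrrg* (-0.094). The insulation score turned with a square of 300 kb at *Tfcp2l1* (0.23), *Lefty1* (0.18) and *Prox1* (-0.14), and with 1 Mb at *Cxcr4* (-0.22). All 5 loci stayed above 0 on the compartment scale under the 4 alternatives run. The cause of these changes was not tested. Maps of the smaller run alone were not run. No paired analysis was possible because each group has 1 list. Depth limits contacts between single bins at far distance, where intervals are wide, as for *Lefty1* with *Cxcr4* (0.117 to 1.65).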

Other observations

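The 3 strongest far contacts of the distal map joined the A runs at 130.5 to 137.25 Mb and at 189.5 to 191.75 Mb. Among pairs of 250 kb bins with at least 20 pairs, the highest value over the mean at equal distance was 7.01, from 24 pairs, between the bins of *Kdm5b* and *Syt2* and of *Dtl*, *Ints7* and *Lpgat1*, 57 Mb apart. The next were *Ptpn7* and *Lgr6* with *Atf3* and *Batf3* (6.89, 30 pairs, 56 Mb apart) and *Nuak2* and *Rbbp5* with *Dtl* and *Ints7* (6.41, 30 pairs). These were picked as the highest of the map, so their sizes are a description. The bin of *Dtl* and *Ints7* ends beside bins left out for low counts.

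Gene number and compartment parted in some bins. Values were above 0 in 11.2% of 179 bins with no coding gene start, 49.6% of 129 bins with 1 or 2, 81.4% of 59 bins with 3 or 4 and 78.4% of 51 bins with 5 or more. The gene-rich bins below 0 were 11, and held *Serpinb5*, the *Fmo* genes, *Ly9* and *Slamf7*, *Tagln2* and *Crp*, *Fcer1a*, *Aim2*, the *Ifi200* and *Olfr* genes and, at 175.5 Mb, *Fh1* with *Kmo* and *Opn3*. The sign of the value is set by gene count over the whole part, so the trend over these classes is partly built in.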
